A study of Trichoderma reesei with 12 samples.

Results

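In the filamentous fungus Trichoderma reesei, 105 of the 10879 genes listed in the deposited table were at least 3-fold higher in constant light than in constant darkness in both of the strains studied. The strains were QM6a-delta-ku80-delta-tmk3, which lacks the mitogen-activated protein kinase gene tmk3, and its parent QM6a-delta-ku80, which the labels call WT. Both strains lack ku80, a DNA repair gene that is removed so that targeted gene replacement works more often. Mycelium was grown at 28 °C for 96 h in minimal medium with cellulose as carbon source, and RNA was sequenced from 3 libraries each of the deletion strain in light (tmk3_LL), the deletion strain in darkness (tmk3_DD), the parent in light (ku80_LL) and the parent in darkness (ku80_DD). The labels list neither a complemented strain nor a second deletion strain, so the loss of tmk3 and other differences that the strains may carry cannot be told apart, and they do not say that the 3 libraries of a group came from separate cultures.

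The genes were chosen on measured values. Counts were scaled to a common library total (counts-per-million, CPM) and averaged per group, the highest group mean had to reach 10 CPM, and the ratio of light to darkness, after adding 1 CPM to each mean, had to reach 3 in each strain. Another 6 identifiers passed these conditions but lay within 50 numbers of the end of their identifier series and were left out. Because light against darkness chose the genes, that comparison is described below without support being drawn from it. The smaller of the strain ratios was 3.01 for TrF0725C, just inside the limit, and 2.99 for TrG0652C, just outside it.

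Nearly all identifiers in the files have a series letter, a serial number and then W or C, and none has a gene name beside it. None (0 of 10879) was found among the 9116 genes of the RefSeq table of the QM6a v2.0 assembly, so functions are not given here and the tmk3 transcript itself was not checked. As background, blue light is sensed in T. reesei by the photoreceptors BLR1 and BLR2, which act together as a transcription factor, and by the small PAS-domain protein ENV1, and light is known to alter the expression of plant cell wall degrading enzymes on cellulose. TMK3 belongs to the Hog1 family of stress-activated kinases. In the related species Trichoderma atroviride, the kinase of this family has been linked to responses to both stress and light.

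The 12 libraries held between 11599300 and 17702344 counts. By counting error alone, 3 counts, the limit that a count of 0 allows, correspond to 0.169 CPM in the deepest and 0.259 CPM in the shallowest library. From here on, levels are CPM from library sizes scaled by the trimmed mean of M values (TMM), fold changes are log2 with an approximate standard error (SE), and a gene was called at an edgeR adjusted p below 0.05 over all 8998 genes tested, which included all 105.

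The light-induced genes together held 9.18% ± 1.17 of all counts in tmk3_LL and 0.535% ± 0.00557 in tmk3_DD, and 11.4% ± 0.587 in ku80_LL and 0.51% ± 0.112 in ku80_DD (SD, n = 3 each). Much of the light total was the transcript TrE0391W, with 4.97% ± 0.751 of counts in tmk3_LL and 6.51% ± 0.546 in ku80_LL. The other 104 genes held 3.74%, 4.56% and 4.31% in the tmk3_LL libraries and 4.94%, 4.73% and 4.91% in the ku80_LL libraries. Every deletion library in light thus lay below every parent library in light, for the sum of the 104 as for the share of TrE0391W. The exact two-sided permutation p was 0.1 for each, the smallest that 3 libraries against 3 can give. The sum of the 104 is weighted by its most abundant genes. Among these, TrB1256C averaged 3537 CPM in tmk3_LL and 6669 CPM in ku80_LL, while TrC1160W averaged 4698 CPM and 3317 CPM. The order of the libraries can therefore turn on single genes, and the sum without them was not tested. In the fit across genes, the strain effect on TrE0391W was not called in light (-0.50, SE 0.58, edgeR adjusted p = 0.609), while in darkness it was higher in the deletion strain (2.56, SE 0.62, edgeR adjusted p = 0.00805). The dark levels of the strains overlapped, since replicate 2 of tmk3_DD, at 13.2 CPM, lay below replicate 3 of ku80_DD, at 14.2 CPM. In darkness the sum over all 105 genes differed by less than the spread between the parent libraries (exact permutation p = 0.7).

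**Figure D1:**
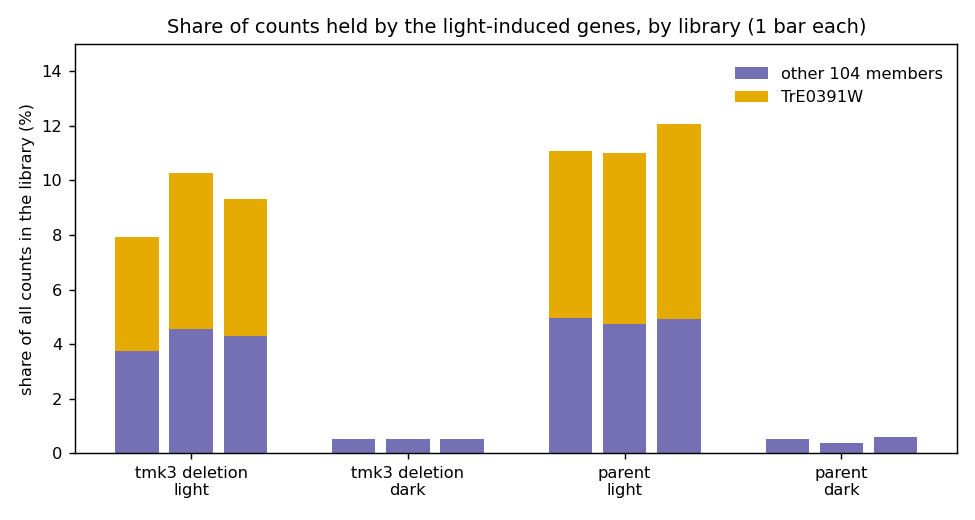
Share of all counts in each library (percent, 1 bar per library) held by the 105 light-induced genes, split into TrE0391W and the other 104. The light libraries hold between 7.94% and 12.1%, with the deletion strain lower, and the dark libraries between 0.393% and 0.616%.

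In all 105 genes the light libraries lay above the dark libraries of the same strain without overlap, in the deletion strain and in the parent, and 104 of the 105 were called higher in each strain. Over all tested genes, light libraries lay wholly above dark ones in 31.1% in the deletion strain and 24.9% in the parent, and 17.7% and 20.8% were called higher (19.7% and 22.2% of those whose highest group mean reached 10 CPM). These shares only show the background, since the same contrast chose the genes. The fitted light effects ranged from 1.69 to 9.67 in the deletion strain, with a median of 3.05, and from 1.35 to 12.73 in the parent, with a median of 3.14. Over all tested genes the medians were -0.01 and -0.05. The gene that was not called in either strain was TrF1083W, at 2.44 (SE 0.98, edgeR adjusted p = 0.0716) in the deletion strain and 2.35 (SE 0.94, edgeR adjusted p = 0.0605) in the parent. Its 3 dark parent libraries ranged from 0.812 to 38.7 CPM.

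TrE0391W and TrD1022C had the largest light effects. TrE0391W stood at 38524, 53795 and 48058 CPM in tmk3_LL and 70.2, 13.2 and 88.7 CPM in tmk3_DD, and at 62866, 62176 and 73797 CPM in ku80_LL and 3.6, 11.5 and 14.2 CPM in ku80_DD. TrD1022C had 175, 251 and 225 CPM in tmk3_LL and 0.501, 0.254 and 0.513 CPM in tmk3_DD, against 472, 384 and 390 CPM in ku80_LL and 0.0693, 0.165 and 0.295 CPM in ku80_DD. Both genes were far lower in each dark library than in any light library, and TrD1022C was below 1 CPM in all 6 dark libraries. TrB1256C, with the second largest share of light counts, was of another kind. It already had 546, 447 and 325 CPM in tmk3_DD and 795, 566 and 826 CPM in ku80_DD, with 3349, 3889 and 3372 CPM in tmk3_LL and 6885, 6062 and 7060 CPM in ku80_LL.

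**Figure D2:**
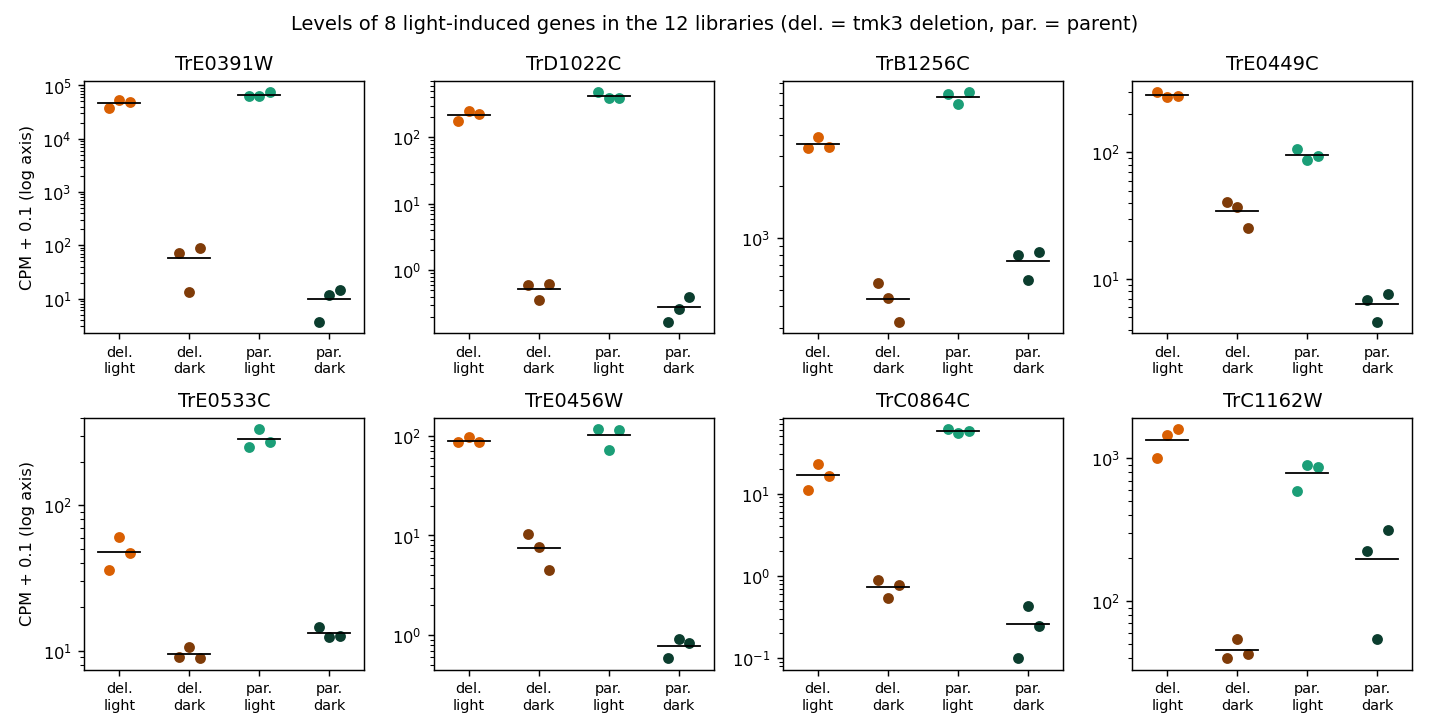
Levels of 8 light-induced genes in the 12 libraries, as CPM + 0.1 on a log axis with its own range in each panel. Points are libraries, lines are the means of 3, and light lies above darkness in both strains in every panel. TrE0391W runs from 3.6 CPM in a dark parent library to 73797 CPM in a light parent library.

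The genes differed in how far they were expressed in darkness. Taking the higher of the dark group means, 7 genes were below 1 CPM, 33 between 1 and 10, 47 between 10 and 100, and 18 at 100 CPM or more. The median light effect was 7.80 in the deletion strain and 9.13 in the parent for the first class and 2.65 and 2.73 for the last, a fold that contains the dark level by construction. The 7.80 is the fitted value of TrF0324C, which had 0 dark counts. It therefore rests on the fit and is not a measured fold. The extreme cases, singled out after their values were seen, were TrG1033C and TrF0324C, with 0 counts in all 6 dark libraries. TrG1033C had 86 counts in the tmk3_LL group and 631 in the ku80_LL group, at least 35.3-fold and 190.3-fold higher than darkness against a floor of 3 counts over the dark group. TrF0324C had 76 and 620 counts, at least 31.2-fold and 187-fold higher. Both reached the 10 CPM of the selection only in ku80_LL, so their lower level in tmk3_LL is given without a test.

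Spread between replicate libraries was larger among these genes than among all tested genes in 3 of the 4 groups. The median coefficient of variation was 14.1% in tmk3_LL, 21.8% in tmk3_DD, 10.5% in ku80_LL and 30.8% in ku80_DD, and over all tested genes 7.55%, 12.4%, 13% and 22.9%. Replicate 1 of tmk3_LL was the lowest of its group for 82 of the 105 genes, replicate 2 of ku80_LL for 54 and replicate 2 of ku80_DD for 52. Replicate 2 of tmk3_LL was the highest of its group for 69. In ku80_DD replicate 3 was the highest for 50, replicate 2 for 39 and replicate 1 for 16. Such counts over all tested genes were not made. The TMM factor of replicate 2 of ku80_DD, 0.761, was the lowest of all libraries. The part of these libraries in the results below was not tested beyond leaving each out.

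The first comparison that the choice of genes did not use was the strain effect averaged over light and darkness, deletion over parent. By this test 21 of the 105 genes were higher and 40 were lower in the deletion strain, that is 20% and 38.1%, where 19.7% and 20.4% of all tested genes were called. Among the 7202 tested genes whose highest group mean reached 10 CPM, as that of these genes had to, the shares were 16.9% and 21.2%. The median log2 fold change was -0.31, against -0.05 over all tested genes. The selection itself bears on this contrast for a few genes: 6 reached 10 CPM only in ku80_LL and 3 only in tmk3_LL, so a difference between the strains in light was partly a condition of their choice. Among the 96 genes that reached it in both, a subset formed after the values were seen, 19 were higher and 36 lower. Without replicate 1 of tmk3_LL, 20 of the 105 were higher and 33 lower. Over all genes that fit called 2986, against 3604 in the main fit. With libraries scaled by their totals alone the split was 25 higher and 29 lower; this scaling raised the median of all genes in this contrast to 0.15.

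TrE0645C had the largest rise in this averaged contrast among the genes named by rule, with 64.0, 33.8 and 45.4 CPM in tmk3_LL against 12.3, 16.9 and 19.5 CPM in ku80_LL, and 1.93, 1.15 and 0.855 CPM in tmk3_DD against 0.208, 0.0824 and 0.221 CPM in ku80_DD. On average over light and darkness it was higher by 2.19 log2 units (SE 0.30, edgeR adjusted p = 0.000202). For TrE0449C the values were 297, 273 and 280 CPM in tmk3_LL against 106, 87.2 and 92.8 CPM in ku80_LL, and 40.8, 36.8 and 25.4 CPM in tmk3_DD against 6.79, 4.53 and 7.6 CPM in ku80_DD. It was higher by 2.0 log2 units (SE 0.15, edgeR adjusted p = 2.78e-06). In neither gene did the strains overlap in light or in darkness.

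On the lower side, TrF0409C, which reached 10 CPM only in ku80_LL and is therefore described without a test, had 7.52, 4.19 and 5.18 CPM in tmk3_LL against 26.7, 38.5 and 23.8 CPM in ku80_LL, and 1.07, 0.254 and 0.114 CPM in tmk3_DD against 3.6, 3.21 and 4.58 CPM in ku80_DD. TrF0840C, which reached 10 CPM in both strains in light, had 10.6, 25.7 and 22.3 CPM in tmk3_LL against 84.6, 90.2 and 103 CPM in ku80_LL, and 0.429, 0.382 and 0.57 CPM in tmk3_DD against 2.56, 3.13 and 0.96 CPM in ku80_DD. Averaged over light and darkness its log2 fold change was -2.24 (SE 0.31, edgeR adjusted p = 0.000207), and its light effect was 5.37 in the deletion strain and 5.38 in the parent. TrF0330C, picked after looking at its values, also reached 10 CPM only in ku80_LL. It had 101 counts in the tmk3_LL group and 1 in the tmk3_DD group, against 156 in the ku80_DD group, and with so low a level in tmk3_LL the selection required a tmk3_DD level near 0.

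In constant light alone, 33 of the 105 genes (31.4%) were lower in the deletion strain and 9 (8.57%) higher, where 9.78% and 10.8% of all tested genes were called. Among tested genes that reached 10 CPM the shares were 9.32% and 9.11%. The choice of genes set no limit on this contrast, but its ratios read the same light libraries for all 105. The member shares are therefore not independent of the choice. In all, 77 of the 105 fold changes were below 0, with a median of -0.44 against 0.00 over all tested genes, and 58 genes were lower and 22 higher without overlap of the libraries, where 24.7% and 25.3% of all tested genes were. Among the 96 genes that reached 10 CPM in both strains in light, 27 were lower and 9 higher, and all 6 that reached it only in ku80_LL were lower. Replicate 1 of tmk3_LL moved with this result. Without it 26 genes were lower and 7 higher, and the median was -0.37. The number of higher calls was 5 without replicate 1 of ku80_LL or replicate 3 of tmk3_LL, and 4 without replicate 3 of ku80_LL or replicate 2 of tmk3_LL. The calls also varied with the dark libraries in the fit: 45 lower and 17 higher without replicate 2 of ku80_DD, and 54 lower and 22 higher when the 6 light libraries were fitted alone. Calls over all genes, in either direction, moved as well. They were 2818 and 3024 in these fits, against 1849 in the main fit. In the fits above that left out 1 light library they were 1288 to 1434.

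The largest falls in light named by rule were those of TrE0533C and TrC0697C. TrE0533C had 35.9, 60.4 and 47.1 CPM in tmk3_LL against 250, 334 and 272 CPM in ku80_LL, which is -2.58 on the log2 scale (SE 0.19, edgeR adjusted p = 7.18e-06). TrC0697C had 44.4, 71.0 and 48.4 CPM in tmk3_LL against 346, 275 and 310 CPM in ku80_LL, with -2.51 (SE 0.31, edgeR adjusted p = 0.00025). In darkness neither was called: TrE0533C averaged 9.45 ± 0.971 CPM in tmk3_DD and 13.1 ± 1.21 CPM in ku80_DD, and TrC0697C averaged 1.5 ± 0.819 CPM in tmk3_DD and 1.1 ± 0.477 CPM in ku80_DD (SD, n = 3 each). The largest rises in light named by rule were again TrE0645C, at 1.56 (SE 0.30, edgeR adjusted p = 0.00349), and TrE0449C, at 1.57 (SE 0.20, edgeR adjusted p = 0.000314).

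In constant darkness, 25 genes (23.8%) were higher and 34 (32.4%) lower in the deletion strain, where 19.1% and 21.6% of all tested genes were called and 17.4% and 23.0% of those that reached 10 CPM. The ratios of the choice also read these dark libraries, so the member shares are not independent of it. The median log2 fold change was -0.07, as over all tested genes, with fold changes from -7.00 to 3.44. The -7.00 is that of TrF0330C, with 1 count in the tmk3_DD group, a low level that the selection required. Among the 96 genes that reached 10 CPM in both strains in light, 23 were higher and 31 lower in darkness. The median of the members was -0.22 without replicate 1 of ku80_DD and without replicate 3 of tmk3_DD. It was -0.25 when the 6 dark libraries were fitted alone. The medians of all genes in these fits were -0.07, -0.07 and -0.08. Without overlap of the libraries 27 genes were higher and 35 lower, where 23.1% and 23.0% of all tested genes were. With libraries scaled by totals alone the split turned to 34 higher and 25 lower, and fitted to the 6 dark libraries alone it was 17 higher and 20 lower. Over all genes, 2183 were called in the 6 dark libraries alone, against 3664 in the main fit.

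TrE0456W had the largest rise in darkness, at 10.4, 7.57 and 4.44 CPM in tmk3_DD against 0.485, 0.824 and 0.738 CPM in ku80_DD, which is 3.44 on the log2 scale (SE 0.36, edgeR adjusted p = 5.46e-05). In light the strains overlapped for this gene, with 86.0, 96.5 and 85.9 CPM in tmk3_LL against 117, 72.3 and 114 CPM in ku80_LL. TrE0645C was also higher in darkness by 2.83 (SE 0.53, edgeR adjusted p = 0.00182), with only 3, 1 and 3 counts in the ku80_DD libraries. Of the falls named by rule TrA1730C had 0.715, 0.382 and 0.171 CPM in tmk3_DD against 2.63, 5.6 and 2.14 CPM in ku80_DD, which is -3.04 on the log2 scale (SE 0.48, edgeR adjusted p = 0.000644). The other, TrF0409C, was described above. These are low counts: the whole tmk3_DD group of TrA1730C averaged 0.423 ± 0.274 CPM (SD, n = 3).

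The strain effects in light and darkness fell on partly different genes. Of the 105, 24 were called in both conditions (16 lower in both, 5 higher in both, and 3 lower in light but higher in darkness), 35 in darkness only, 18 in light only and 28 in neither. Of the 18 called in light only, 14 were lower. Of the 35 called in darkness only, 17 were higher and 18 lower. A call in only 1 condition does not show that the conditions differed, which is what the interaction tests.

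**Figure D3:**
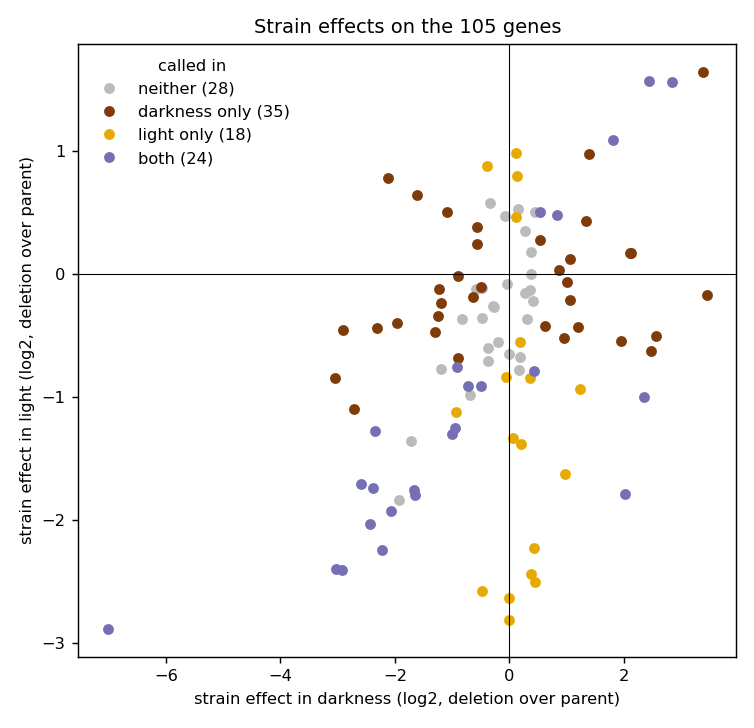
Strain effect (log2, deletion over parent) of the 105 light-induced genes in darkness (x axis) and in light (y axis), coloured by where it was called. Most points lie below 0 on the light axis (77 of 105), while on the dark axis 48 lie above and 55 below 0. The genes at exactly 0 on the dark axis are TrG1033C and TrF0324C, with 0 dark counts.

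The interaction, the light effect in the deletion strain minus that in the parent, was called for 38 of the 105 genes. The light effect was smaller in the deletion strain for 25 (23.8%) and larger for 13 (12.4%), where 7.71% and 6.39% of all tested genes were called and 8.01% and 7.12% of those that reached 10 CPM. The choice of genes limits this contrast, since both light effects had to pass a minimum, and genes with strong responses leave more room for a difference. Across the 105 genes the light effects of the strains, which share no libraries, were related (Pearson's r = 0.81, Spearman's rho = 0.64, a description across genes that are not independent). The effect was larger in the parent for 61 genes and in the deletion strain for 44, and for 66 the strains were within 1 log2 unit. With libraries scaled by totals alone, 26 interactions were lower and 5 higher. The number of higher calls fell to 7 without replicate 2 of tmk3_DD, replicate 2 of tmk3_LL or replicate 3 of tmk3_LL, and to 8 without replicate 1 of ku80_DD, replicate 2 of ku80_LL or replicate 3 of ku80_LL. Over all genes, the fits without these libraries called 842 to 1215 interactions in either direction, against 1269 in the main fit.

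Differences in darkness accompanied most of these interactions. Among the 25 genes with a smaller light effect in the deletion strain, 24 had a fold change above 0 in darkness, of which 16 were called, and 12 were called lower in light. The median strain effect of the 25 was 1.05 in darkness and -0.62 in light. Among the 13 with a larger light effect, all 13 were below 0 in darkness and 12 of them were called, with medians of -1.62 in darkness and -0.02 in light. Both components enter the interaction, so these counts describe it and do not test it.

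TrC0864C had the largest negative interaction named by rule, with 11.1, 22.7 and 16.4 CPM in tmk3_LL and 0.787, 0.445 and 0.684 CPM in tmk3_DD, against 60.4, 55.0 and 57.8 CPM in ku80_LL and 0, 0.33 and 0.148 CPM in ku80_DD. It was lower in the deletion strain in light and higher in darkness without overlap, and its interaction was -3.80 (SE 0.71, edgeR adjusted p = 0.00545). This rests on low counts, with 0, 4 and 2 in the ku80_DD libraries. Its call in darkness was lost when any of 4 of the 12 libraries was left out (edgeR adjusted p up to 0.0743). For TrE0456W, whose difference lay in darkness, it was -3.62 (SE 0.45, edgeR adjusted p = 0.000627), and for TrE0533C, whose called difference lay in light, -2.11 (SE 0.26, edgeR adjusted p = 0.000627). The interaction of TrE0391W, at -3.06 (SE 0.84, edgeR adjusted p = 0.035), lost its call when any of 9 of the 12 libraries was left out (edgeR adjusted p up to 0.0881). TrD1022C had -2.17 (SE 0.50, edgeR adjusted p = 0.016), and its call was lost without replicate 3 of tmk3_DD (edgeR adjusted p = 0.0535).

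**Figure D4:**
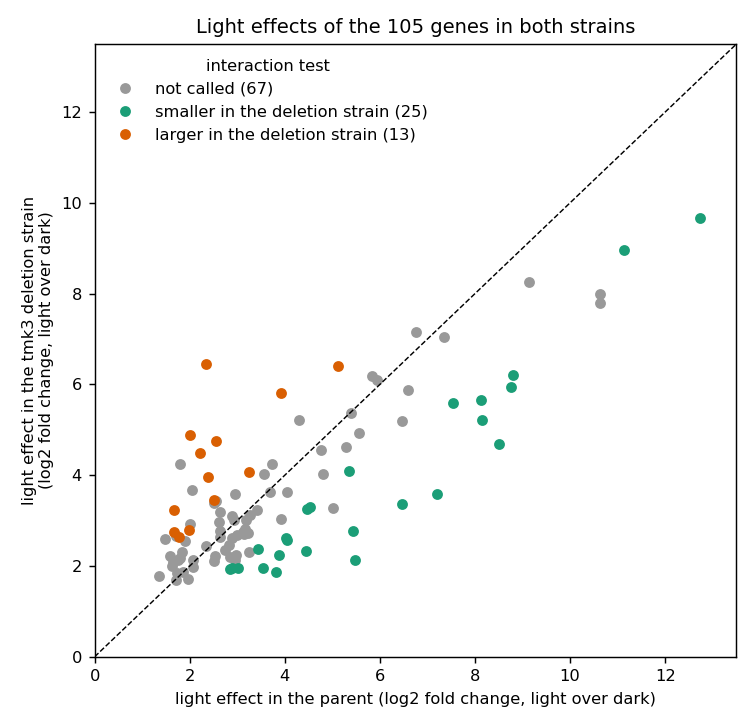
Light effect (log2 fold change, light over dark) of the 105 genes in the parent (x axis) and in the deletion strain (y axis), coloured by the interaction test, with the line of equal effects dashed. Of the called genes 25 lie below the line and 13 above it, and TrE0391W and TrD1022C are the points farthest to the upper right.

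The largest positive interactions named by rule were those of TrC1162W and TrC1161W, which are neighbours by their numbers. TrC1162W had 1000, 1456 and 1602 CPM in tmk3_LL and 39.8, 54.2 and 42.5 CPM in tmk3_DD, against 590, 901 and 876 CPM in ku80_LL and 224, 54.4 and 313 CPM in ku80_DD. Its interaction was 2.89 (SE 0.68, edgeR adjusted p = 0.0166). TrC1161W had 1259, 1780 and 1711 CPM in tmk3_LL and 74.1, 77.2 and 60.3 CPM in tmk3_DD, against 892, 1147 and 999 CPM in ku80_LL and 220, 105 and 327 CPM in ku80_DD, with an interaction of 2.27 (SE 0.46, edgeR adjusted p = 0.0078). In both genes the light libraries of the deletion strain lay above those of the parent and the dark ones below, though for TrC1162W replicate 2 of ku80_DD, at 54.4 CPM, barely exceeded replicate 2 of tmk3_DD, at 54.2 CPM.

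Consecutive numbers within a series were read as neighbouring genes and the letters W and C as strands, both assumptions from the form of the identifiers. The 105 genes were spread over all 7 series, from 3 of 969 tested genes in series G to 23 of 1348 in series C and 16 of 878 in series F. By letter 49 were W and 56 C, and of all identifiers with such a letter 5366 were W and 5510 C. Most were isolated: 86 had no adjacent member, 12 stood in 6 pairs, 3 in a run of 3 and 4 in a run of 4. Of the 11 adjacent pairs so formed, 5 had the letters C then W, which would make them head to head, 1 had W then C, and 5 shared a letter. Among all neighbouring identifiers 29.1% were C then W and 29.1% W then C. Neighbours that are not members themselves were also called higher in light more often than the background, 34.8% of 158 in the deletion strain and 30.4% in the parent, against 17.7% and 20.8% of all tested genes. The strand setting of the authors' counting is not given in the sources used here, so reads of overlapping neighbours may be shared, and the part of this in these shares was not tested.

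The run of 4 consisted of TrC1160W, TrC1161W, TrC1162W and TrC1163C. TrC1160W had 3553, 5247 and 5294 CPM in tmk3_LL and 357, 310 and 234 CPM in tmk3_DD, against 2978, 3762 and 3211 CPM in ku80_LL and 659, 367 and 884 CPM in ku80_DD. The 3 W genes thus shared a pattern, in which darkness was lower in the deletion strain and light was not called different. Their strain effects in darkness were -1.08 (edgeR adjusted p = 0.0133), -1.62 (edgeR adjusted p = 0.0029) and -2.12 (edgeR adjusted p = 0.00617), and replicate 2 of ku80_DD was the lowest of its group for each. The call of TrC1160W in darkness was lost without replicate 3 of tmk3_DD (-0.93, edgeR adjusted p = 0.052), and its interaction of 1.59 (edgeR adjusted p = 0.0268) was lost without any of 7 libraries. TrC1163C, on the other letter, averaged 45.5 ± 1.17 CPM in tmk3_LL and 1.92 ± 0.0747 CPM in tmk3_DD, and 40.2 ± 6.04 CPM in ku80_LL and 1.45 ± 1.41 CPM in ku80_DD (SD, n = 3 each), and no strain effect or interaction was called for it.

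Of the 7 tested non-members among the 4 identifiers on each side of this run, 2 rose in light in the deletion strain and 1 in the parent, and 1 fell in the deletion strain and 4 in the parent, where 21.1% and 26.7% of all tested genes were called lower. TrC1159C, directly beside the run, rose in both strains, by 4.18 (edgeR adjusted p = 2.13e-05) in the deletion strain and 2.23 (edgeR adjusted p = 0.000984) in the parent. Its levels were low, averaging 3.58 ± 1.01 CPM in tmk3_LL and 0.185 ± 0.0868 CPM in tmk3_DD. In the parent they were 1.32 ± 0.229 CPM in ku80_LL and 0.272 ± 0.0661 CPM in ku80_DD (SD, n = 3 each). TrC1166C, which is not a member and was picked after looking at its values, averaged 30.8 ± 20.5 CPM in tmk3_LL and 435 ± 441 CPM in tmk3_DD, and 51.4 ± 62.4 CPM in ku80_LL and 16424 ± 1627 CPM in ku80_DD (SD, n = 3 each). Its light effect was -3.82 (edgeR adjusted p = 0.0138) in the deletion strain and -8.32 (edgeR adjusted p = 0.000348) in the parent.

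The densest stretch of 20 consecutive identifiers, found after the values were seen, lay in series B, where 7 of the 18 identifiers from TrB1198C to TrB1215W were members. Their median light effect was 2.76 in the deletion strain and 3.11 in the parent. Of the 11 others 7 were tested, and 4 of these rose in the deletion strain and 2 in the parent, while 1 and 3 fell, where 17.7% and 20.8% of all tested genes were called higher and 21.1% and 26.7% lower. Adjacent members could be called in opposite directions for the averaged strain effect, which was so in 3 of the 8 groups of adjacent members. In the run from TrF1081C to TrF1083W, the member called higher, TrF1082W, reached 10 CPM only in tmk3_LL. Its strain difference was thus partly a condition of its choice. TrD0222C was higher and TrD0223W lower in the deletion strain, by 0.28 (edgeR adjusted p = 0.0158) and -0.41 (edgeR adjusted p = 0.00657). The former was called in light only and the latter in darkness only. In the head-to-head pair of TrC1144C and TrC1145W the first was lower (-0.84, edgeR adjusted p = 0.00118) and the second higher (0.70, edgeR adjusted p = 0.0248). TrC1144C was called lower in both conditions. TrC1145W was lower in light without overlap, though not called (-0.55, edgeR adjusted p = 0.149), and higher in darkness (1.94, edgeR adjusted p = 0.00155). Its interaction was called (-2.49, edgeR adjusted p = 0.00345).

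**Figure D5:**
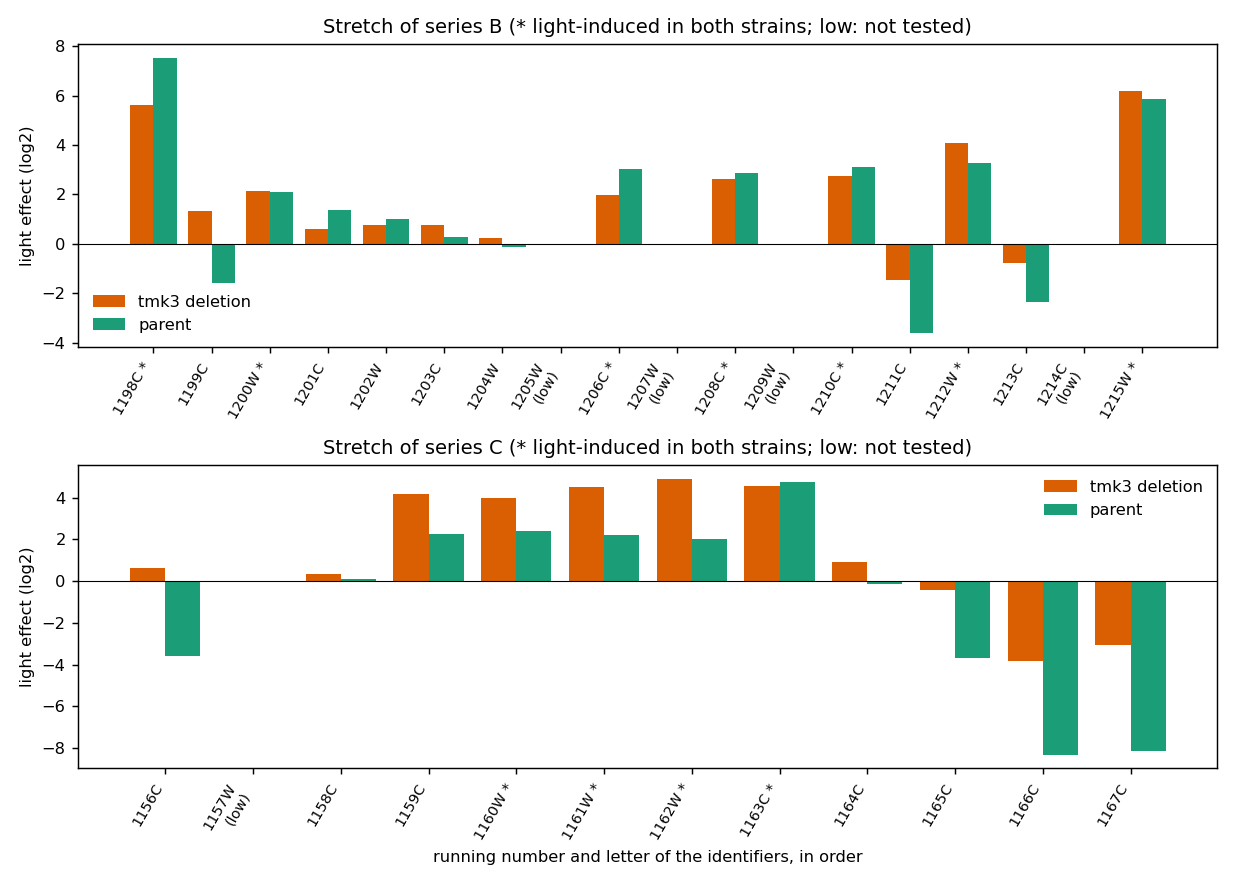
Light effect (log2 fold change, light over dark) in the tmk3 deletion strain and the parent along the stretches of series B (TrB1198C to TrB1215W) and series C (TrC1156C to TrC1167C), with members starred and untested genes marked low. In the series B stretch 7 starred genes stand among others, and in series C the run of 4 is followed by genes with negative bars in the parent, where TrC1166C is at -8.32.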

How the data were processed

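The deposited table holds raw counts per gene model for 12 libraries, with no normalization by the authors. Reads were aligned with HISAT2 2.2.1, per the submitters' processing notes, and the series' design text names the QM6a transcript set of the complete genome. The sources used here do not state the counter's version, strand setting or filters. All columns were assigned to samples through the descriptions in the labels (0 left unused).

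Analysis used edgeR 4.0.16 under R 4.3.3: filterByExpr kept 8998 genes, libraries were scaled by TMM, and 4 group means were fitted over all 12 libraries. Contrasts used the quasi-likelihood F test with Benjamini-Hochberg adjustment over all genes. The approximate SE was taken as the size of the log2 change over the root of its F statistic. DESeq2 1.42.0, other scalings, no filter, a replicate block, pairwise fits and leaving out each library were the alternatives.

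The members and lists were chosen with earlier results of these data known. Genes were named by rule: the 2 largest light effects, the 2 largest shares of light counts, up to 2 higher and 2 lower per strain contrast and interaction (called, mean log2 CPM of at least 3, no overlap of libraries in the strain contrasts), the genes at the limit, and the longest run. For the averaged strain effect no member (0) passed that condition over 6 against 6 libraries, because light and darkness differ more than the strains, so no overlap within each light condition was asked instead. No gene list could be applied, since identifiers are not named.

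P-values measure the spread between libraries, which may be technical.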

Additional observations from a re-analysis of the deposited data

Results flagged for a closer look

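The light effect differed between the strains, by the interaction test, for 38 of the 105 genes, 13 with a larger and 25 with a smaller effect in the deletion strain. Among the genes named by rule, smaller effects were called for TrC0864C (-3.80 on the log2 scale), TrE0456W (-3.62), TrE0391W (-3.06), TrC0697C (-2.94), TrD1022C (-2.17) and TrE0533C (-2.11). Larger effects were called for TrC1162W (2.89), TrC1161W (2.27), TrA1730C (2.19) and TrC1160W (1.59). The calls of TrE0391W, TrA1730C and TrC1160W were lost when any of 9, 7 and 7 of the 12 libraries was left out, with values from -3.53 to -2.60, 1.63 to 2.77 and 1.27 to 1.81.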

How the results depend on the processing

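Of 1347 recomputed values of named members, 1304 kept their direction and call, 43 lost the call and 0 reversed. These values include the light effects, which chose the genes, so the share kept does not describe the strain effects and interactions alone. No light effect of a named member lost its call when 1 library was left out. Of 196 recomputed counts, 180 stayed within 1.5 times. Calls over all genes moved in some of these fits as well, as given above for light, darkness and the interaction. Of the 16 others, 11 came from leaving out 1 library (5 for genes higher in light, 6 for interactions higher). The remaining 5 were the 6 light libraries fitted alone (22 genes higher and 54 lower in light in the deletion strain, against 9 and 33), the 6 dark libraries alone (20 lower in darkness, against 34, with 98 members tested), totals alone (5 interactions higher, against 13) and a ratio of at least 2 in the choice of genes (217 members, against 105); the cause was not tested. Leaving out 1 library gave 4 to 17 genes higher and 26 to 45 lower in light, 21 to 27 higher and 29 to 35 lower in darkness, 17 to 26 and 33 to 47 for the averaged effect, 7 to 16 and 19 to 33 for the interaction, 102 to 105 and 101 to 104 for the light effects in the deletion strain and the parent, and 103 to 109 members. Deviations of same-numbered libraries from their group means had r from -0.37 to 0.115 over 18 pairs, and those of differently numbered libraries from -0.152 to 0.391 over 36. Deviations within a group of 3 sum to 0, so these values cannot tell whether same-numbered libraries shared a batch. With the replicate block, 19 genes were higher and 36 lower for the averaged effect, 8 and 30 in light, 25 and 32 in darkness, and 10 and 20 for the interaction, and the interaction calls of TrE0391W, TrA1730C and TrC1160W were lost. Leaving TrE0391W out of the totals, chosen after seeing the data, gave 117 members, and leaving out replicate 2 of ku80_DD with replicate 1 of tmk3_DD gave 104. Scaling by totals alone gave a median of all genes in darkness of 0.22, against -0.07. Levels under 0.259 CPM rest on 3 counts or fewer in the shallowest library.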
